A study of Mus musculus with 10 samples.

Results

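Chaperones bind proteins that are unfolded or newly made and keep them from clumping until they reach their folded state. Cells hold separate sets of them in the cytosol, the endoplasmic reticulum and the mitochondria. In the cytosol, heat and other stress release the transcription factor HSF1, which binds heat shock elements in front of chaperone genes. The endoplasmic reticulum has its own response, in which unfolded protein raises the Hsp70 of that compartment, and mitochondria fold the proteins they import with a further set of nuclear-encoded chaperones. Neurons are known to induce the stress-inducible cytosolic Hsp70 weakly and to hold much of the constitutive form.

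The mRNA of 10 chaperone genes was examined in the hippocampus of nPGC-1α and PGC-1αf/f mice. They were chosen by name and are ordered by the compartment of the protein. In the cytosol they were Hspa1a, Hspa1b, Hspa8, Hsph1, Dnajb1 and Hspb1, in the endoplasmic reticulum Hspa5, and in mitochondria Hspa9, Hspd1 and Hspe1. They are 10 of 17593 named genes that could be tested. PGC-1α is a transcriptional coactivator known for driving mitochondrial biogenesis, and whether its transgene goes with a change of chaperone mRNA is the question of the comparison.

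PGC-1αf/f mice carry at Rosa26 a PGC-1α transgene that a floxed stop cassette keeps silent. nPGC-1α mice carry the same transgene together with Eno2-Cre, so that neurons lose the cassette and express PGC-1α with eGFP. The controls were littermates without Cre, and both groups were labelled as C57BL/6 males of 12 weeks without surgery. Each group had 5 mice with 1 one-colour Agilent array per mouse, and the tissue was whole hippocampus although the labels name neurons as the cell type. In such tissue, fewer cells of a type and less RNA per cell cannot be told apart. Cre was present in 1 group alone, so Cre and the transgene cannot be told apart either.

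A few facts of the arrays touch every value. Of all spots, 74.5% to 81.5% were well above background in PGC-1αf/f and 67.2% to 73.4% in nPGC-1α mice, with no overlap, and the background noise signal was 5.16 to 8.98 against 10.71 to 20.9. Replicate 1 of each group had 10.5% and 11.6% of its spots marked as outliers, against 0.192% to 4.75% on the other arrays. Replicates 1 to 4 of both groups shared slide 1 and replicate 5 of both shared slide 2. On slide 1 all PGC-1αf/f arrays were in row 1 and all nPGC-1α arrays in row 2, so that on this slide the groups cannot be told apart from the rows. On the labels, the tested Ppargc1a probe read 2.06 to 2.34 over all arrays and did not separate the groups (difference 0.0035, adjusted p = 0.990 by limma). The Y-linked Eif2s3y was bright, at 1.18 to 1.43, on nPGC-1α replicates 1, 3 and 5 and PGC-1αf/f replicate 1, and between -8.86 and -6.16 on the other 6 arrays, although all mice were labelled male. The X-linked Xist lay between -5.80 and -4.91 on those 4 arrays and at -5.34 on PGC-1αf/f replicate 5, which thus was dim for both. On the remaining arrays, all low for Eif2s3y, Xist was brighter, at -3.28 to -2.43. Whether the Ppargc1a probe also reads the transgene was not determined. By Western blot of hippocampus, the authors reported higher PGC-1α in nPGC-1α mice. With the Eif2s3y class as a covariate no chaperone gene passed an unadjusted p of 0.05. The differences that moved by over 1.5 times in that fit were those of Hspe1 (-0.17), Dnajb1 (-0.11), Hspa5 (-0.09), Hsph1 (0.10) and Hspb1 (-0.03), whose values without it are given with each gene.

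Levels below are log2 signals relative to the 75th percentile of the same array, so a level of 0 is as bright as that percentile. A difference is nPGC-1α minus PGC-1αf/f on this log2 scale. Probes bind with unequal strength, so levels were compared between mice and never between genes. The array held 21 probes of the 10 genes, and every one was well above background on all 10 arrays. Of these, 18 could be tested. The remaining 3, A_55_P2069721 of Hspa8, A_55_P2176963 of Hsph1 and A_66_P124339 of Hspe1, were marked as outliers on too many arrays. A gene with more than 1 tested probe is described first by its brightest one, and calls refer to that probe.

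None of the 10 genes passed an adjusted p of 0.05 in limma, for which 0.00568% of the named genes tested were called. None passed an unadjusted p of 0.05 either, against 8.21% of the named genes, none combined 1.5-fold with that p, against 2.28%, and in none did the groups fail to overlap, against 2.36%. Adjusted p-values ran from 0.485 for Hspd1 to 0.978 for Hspb1. In simulated data, 0% of log2 changes of 0.5 and 68.5% of changes of 1 were recovered at an adjusted p of 0.05 in limma. Not passing it thus does not by itself exclude changes of 0.5, nor every change of 1. The simulation drew on the spread of all probes kept, whereas the intervals below are those of the genes themselves. The difference was above 0 for 5 genes and below 0 for 5. On the probes that stand for the 10 genes, the 95% intervals of the fold lay within 0.775 for Hspd1 and 1.77 for Hspa1a. Each of these rests on 8 to 10 arrays. Among further probes, the interval of A_66_P137434 of Hspa8, over 4 against 3 arrays, reached 2.97.

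**Figure D1:**
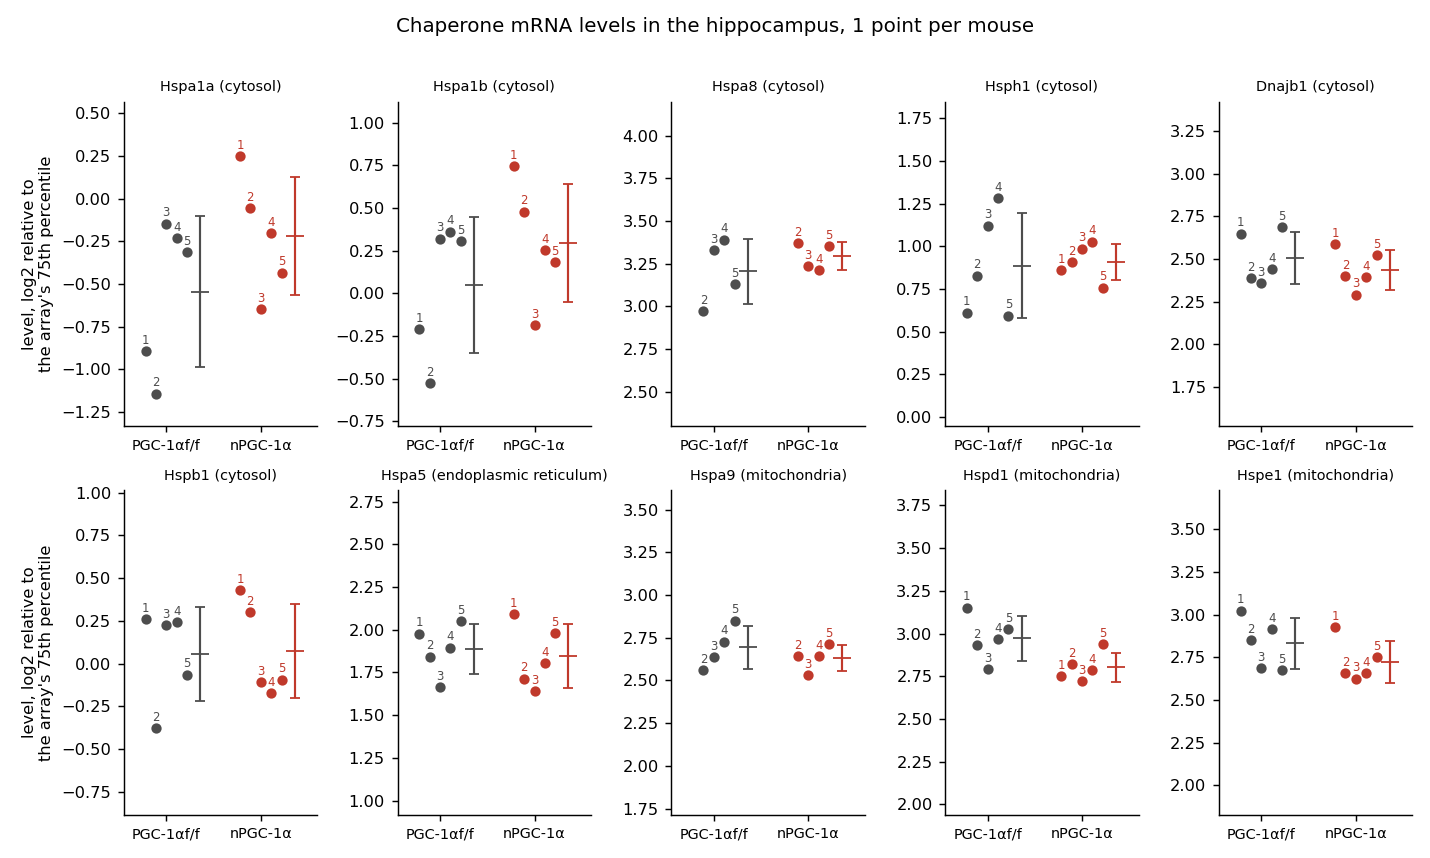
Levels of the 10 chaperone mRNAs, 1 point per mouse with its replicate number, as log2 signal relative to the 75th percentile of the array. Every panel spans the same log2 range, bars are the mean and SD of a group, and the groups overlap in every panel. Hspa1a and Hspa1b spread most, and Hspa8 and Hspa9 have no value on replicate 1 of either group.

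Hspa1a and Hspa1b encode the stress-inducible cytosolic Hsp70 and lie next to each other on chromosome 17, separated by 10120 bases in GRCm38.p6. Their promoters are shown because they are nearly the same sequence. Over the 150 bases before the annotated start, 149 were identical, and capitals mark a heat shock element of the form GAANNTTC, 104 bases before the start (RefSeq, chr17:34972157-34972306 and chr17:34959239-34959388, both on the minus strand). This form or TTCNNGAA occurred in 17.0% of 27025 genes within 250 bases before to 50 bases after a start.
Hspa1a: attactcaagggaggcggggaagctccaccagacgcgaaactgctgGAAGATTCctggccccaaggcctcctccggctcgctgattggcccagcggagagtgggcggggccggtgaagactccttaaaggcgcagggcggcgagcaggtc
Hspa1b: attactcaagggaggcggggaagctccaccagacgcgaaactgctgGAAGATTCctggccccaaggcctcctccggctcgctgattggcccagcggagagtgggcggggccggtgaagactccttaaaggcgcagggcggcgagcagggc

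The level of Hspa1a in PGC-1αf/f mice was -0.89, -1.14, -0.15, -0.23 and -0.31 for replicates 1 to 5. In nPGC-1α mice it was 0.25, -0.06, -0.65, -0.20 and -0.43. The 2 highest mice were nPGC-1α and the 2 lowest PGC-1αf/f, while the other 6 were interleaved. The means were -0.545 ± 0.444 and -0.219 ± 0.344 (SD, n = 5 each), a difference of 0.33 or 1.25-fold, with a 95% interval of 0.890 to 1.77. The difference was smaller than the spread between mice (limma adjusted p = 0.589, exact permutation p = 0.238, two-sided, where 0.00794 is the smallest that 5 against 5 can give). On slide 1 alone it was 0.44, whereas the single mouse of each group on slide 2 differed by -0.12. Without both outlier-rich arrays it was 0.12. It remained above 0 with each array left out in turn, at 0.18 to 0.43.

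For Hspa1b the level in PGC-1αf/f mice was -0.21, -0.53, 0.32, 0.36 and 0.31, and in nPGC-1α mice 0.75, 0.48, -0.18, 0.26 and 0.18. Again the 2 highest were nPGC-1α replicates 1 and 2 and the 2 lowest PGC-1αf/f replicates 2 and 1. The difference was 0.24, or 1.18-fold with an interval of 0.856 to 1.64 (limma adjusted p = 0.668, exact permutation p = 0.341, two-sided). Without both outlier-rich arrays it was 0.07. The log2 gap between both probes stayed within 0.460 and 0.685 over the 10 arrays, while each probe itself ranged over 1.39 and 1.27. Whether the 2 probes tell the mRNAs of these genes apart was not determined, so they may not be 2 separate observations, although the counts of genes hold both. Hspa1a varied more within groups than 88.0% of the named genes tested, with a within-group SD of 0.397 against a median of 0.187.

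Hspa8 encodes the constitutive cytosolic Hsp70, also known for uncoating clathrin vesicles. Its brightest tested probe read 2.97, 3.33, 3.39 and 3.13 on PGC-1αf/f replicates 2 to 5 and 3.37, 3.24, 3.21 and 3.35 on nPGC-1α replicates 2 to 5. The nPGC-1α mice lay inside the range of the PGC-1αf/f mice. The difference was 0.09, or 1.06-fold with an interval of 0.882 to 1.28 (4 against 4 arrays, since replicate 1 of both groups was dropped as an outlier, limma adjusted p = 0.790). Leaving out 1 array moved it to between 0.01 and 0.15.

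Hsph1 and Dnajb1 encode helpers of the cytosolic Hsp70, namely an Hsp110 that exchanges its nucleotide and an Hsp40 that brings it clients. Hsph1 read 0.61, 0.83, 1.12, 1.28 and 0.59 in PGC-1αf/f mice and 0.86, 0.91, 0.99, 1.03 and 0.76 in nPGC-1α mice, all of which lay inside the PGC-1αf/f range. Its difference was 0.02, 1.01-fold with an interval of 0.818 to 1.26 (limma adjusted p = 0.963), and it turned to -0.11 with array weights and to -0.04 without both outlier-rich arrays. Dnajb1 is a strongly heat-inducible gene. It read 2.65, 2.39, 2.36, 2.44 and 2.69 in PGC-1αf/f and 2.59, 2.40, 2.29, 2.39 and 2.52 in nPGC-1α mice, so that replicates 1 and 5 were the highest of both groups. The difference was -0.07, 0.954-fold with an interval of 0.820 to 1.11 (limma adjusted p = 0.808).

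Hspb1 encodes a small heat shock protein that holds unfolded proteins without ATP and in the brain is known mostly from glia and vessels. It read 0.26, -0.38, 0.23, 0.24 and -0.07 in PGC-1αf/f mice and 0.43, 0.30, -0.11, -0.17 and -0.09 in nPGC-1α mice. Replicates 1 and 2 of the nPGC-1α mice were the highest of all 10, and the other 3 lay in the lower part of the PGC-1αf/f range. The difference was 0.01, 1.01-fold with an interval of 0.787 to 1.30 (limma adjusted p = 0.978), and it changed sign under 7 of 25 alternatives. Over the 6 cytosolic genes the median difference was 0.05, with 5 above 0 and 1 below, beside a median of -0.02 over all named genes. With Hspa1a and Hspa1b taken as 1 gene, 4 were above 0 and 1 below, and the median was 0.02. Over the alternatives the median of the 6 genes ran from -0.01 with array weights to 0.21 with the mean of the probes of a gene, and it was 0.13 with quantile normalisation.

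Hspa5 encodes the Hsp70 of the endoplasmic reticulum, known as BiP. Its promoter is shown because it holds the element by which unfolded protein in that compartment acts on the gene. Capitals mark an endoplasmic reticulum stress element, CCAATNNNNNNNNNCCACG, 65 bases before the start (RefSeq, GRCm38.p6, chr2:34771940-34772089, plus strand), which 0.137% of 27025 genes hold within 250 bases before to 50 bases after a start.
Hspa5: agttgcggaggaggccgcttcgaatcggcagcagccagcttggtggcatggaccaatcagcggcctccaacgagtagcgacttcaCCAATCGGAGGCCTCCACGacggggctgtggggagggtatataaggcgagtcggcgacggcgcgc

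Hspa5 read 1.98, 1.84, 1.66, 1.90 and 2.05 in PGC-1αf/f mice and 2.09, 1.71, 1.64, 1.80 and 1.98 in nPGC-1α mice. As with Dnajb1, replicates 1 and 5 were the highest of each group. The difference was -0.04, 0.973-fold with an interval of 0.818 to 1.16 (limma adjusted p = 0.908, exact permutation p = 0.706, two-sided). Its other probes differed by -0.04 and 0.05. Quantile normalisation turned the difference to 0.01.

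Hspd1 and Hspe1 encode the mitochondrial chaperonin Hsp60 and its lid Hsp10, which together form the folding chamber of the matrix. The genes lie head to head on chromosome 1, where their annotated spans overlap by 96 bases, and are known to share a promoter. The stretch before Hspe1 is shown because it holds the densest heat shock element of the genes examined, in capitals 89 bases before the start (RefSeq, GRCm38.p6, chr1:55087998-55088147, plus strand). There, 2 matches to an element of 3 units (GAANNTTCNNGAA or TTCNNGAANNTTC, each of which also holds elements of 2 units) overlap, and the same bases lie on the other strand before the second annotated start of Hspd1.
Hspe1: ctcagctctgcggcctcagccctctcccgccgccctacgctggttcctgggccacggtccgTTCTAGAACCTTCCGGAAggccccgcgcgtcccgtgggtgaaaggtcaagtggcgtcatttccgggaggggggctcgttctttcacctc

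In lower case, 48 bases before the start, the same stretch holds AAGGTCA, the core sequence bound by estrogen-related receptors, which are known partners of PGC-1α. Each motif was searched on both strands. The letters of the 3-unit element occurred in 0.662% and AAGGTCA in 5.38% of the 27025 genes, and the 2-unit element in 17.0%. Matches describe sequence and not binding.

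**Figure D2:**
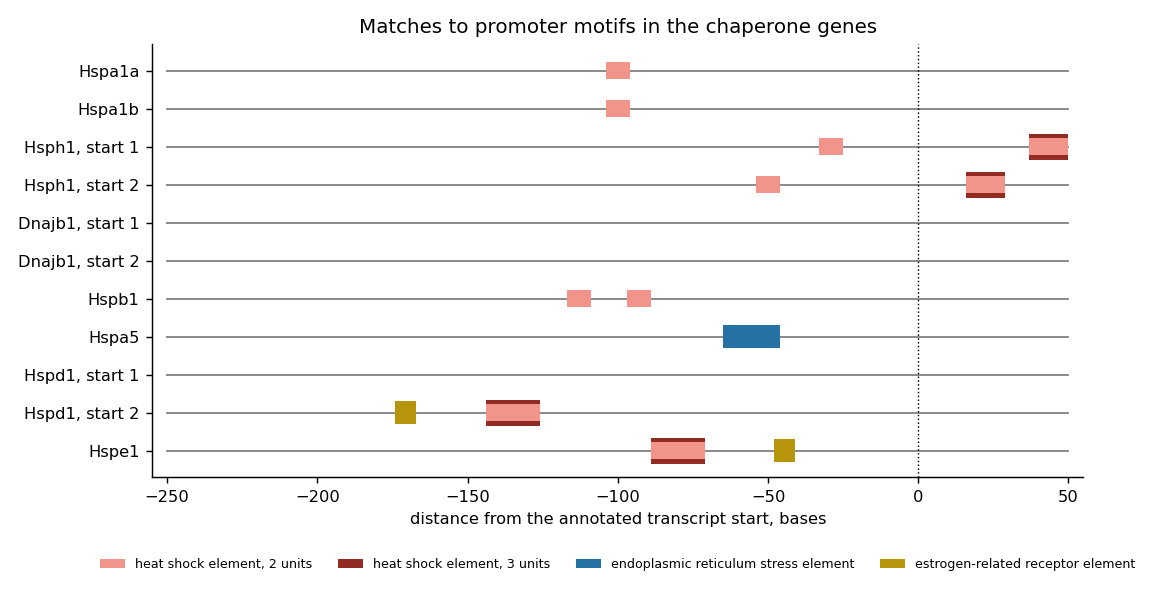
Matches to the heat shock elements, the endoplasmic reticulum stress element and the AAGGTCA element in windows from 250 bases before to 50 bases after each annotated start, by distance in bases. Pale boxes are 2-unit heat shock elements and lie over the dark 3-unit boxes that contain them. The 3-unit element occurs in the windows of Hsph1, the second Hspd1 start and Hspe1, and the AAGGTCA element in those of the second Hspd1 start and Hspe1. The windows of the first Hspd1 start and of both Dnajb1 starts hold no match.

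Hspd1 had the lowest unadjusted p of the 10 genes. The level was 3.15, 2.93, 2.79, 2.97 and 3.02 in PGC-1αf/f mice and 2.75, 2.82, 2.72, 2.78 and 2.94 in nPGC-1α mice. All 5 nPGC-1α mice were below the PGC-1αf/f mean and 3 were below every PGC-1αf/f mouse. The means were 2.97 ± 0.132 and 2.80 ± 0.0848 (SD, n = 5 each), a difference of -0.17, or 0.889-fold with an interval of 0.775 to 1.02. The exact permutation test over the arrays gave p = 0.0476 and limma gave p = 0.0854 before and 0.485 after adjustment over all probes, so the difference did not pass.

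The size of the Hspd1 difference depended on the scaling, at -0.07 with quantile normalisation and -0.01 with normexp and quantile normalisation. Without PGC-1αf/f replicate 3 limma gave an unadjusted p of 0.0382 and an adjusted p of 0.346. The dimmer tested probe of Hspd1, A_55_P2846649, differed by -0.02, with an interval of the fold of 0.853 to 1.14.

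Hspe1 read 3.02, 2.85, 2.69, 2.92 and 2.68 in PGC-1αf/f mice and 2.93, 2.66, 2.63, 2.66 and 2.75 in nPGC-1α mice. Here 3 nPGC-1α mice were below every PGC-1αf/f mouse and replicate 1 was near the top. The difference was -0.11, 0.928-fold with an interval of 0.797 to 1.08 (limma adjusted p = 0.689, exact permutation p = 0.246, two-sided), and it was -0.02 with quantile normalisation. On its second probe, A_55_P1953063, 4 of 5 nPGC-1α mice were below every PGC-1αf/f mouse and replicate 5 was above every one, with a difference of -0.21 (exact permutation p = 0.183, two-sided).

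Hspa9 encodes mortalin, the mitochondrial Hsp70 that pulls proteins through the import channel. It read 2.56, 2.64, 2.73 and 2.85 on PGC-1αf/f replicates 2 to 5 and 2.64, 2.53, 2.64 and 2.71 on nPGC-1α replicates 2 to 5. The difference was -0.06, 0.958-fold (4 against 4 arrays, limma adjusted p = 0.832), while its dimmer probe differed by 0.10. The 3 mitochondrial genes were all below 0 with a median of -0.11. With quantile normalisation that median was -0.02 and Hspa9 was at 0.02, while the median was -0.17 with the Eif2s3y class as a covariate and -0.15 on slide 1 alone. Leaving out 1 array moved it to between -0.16 and -0.06. The difference between the cytosolic and the mitochondrial genes was not tested.

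**Figure D3:**
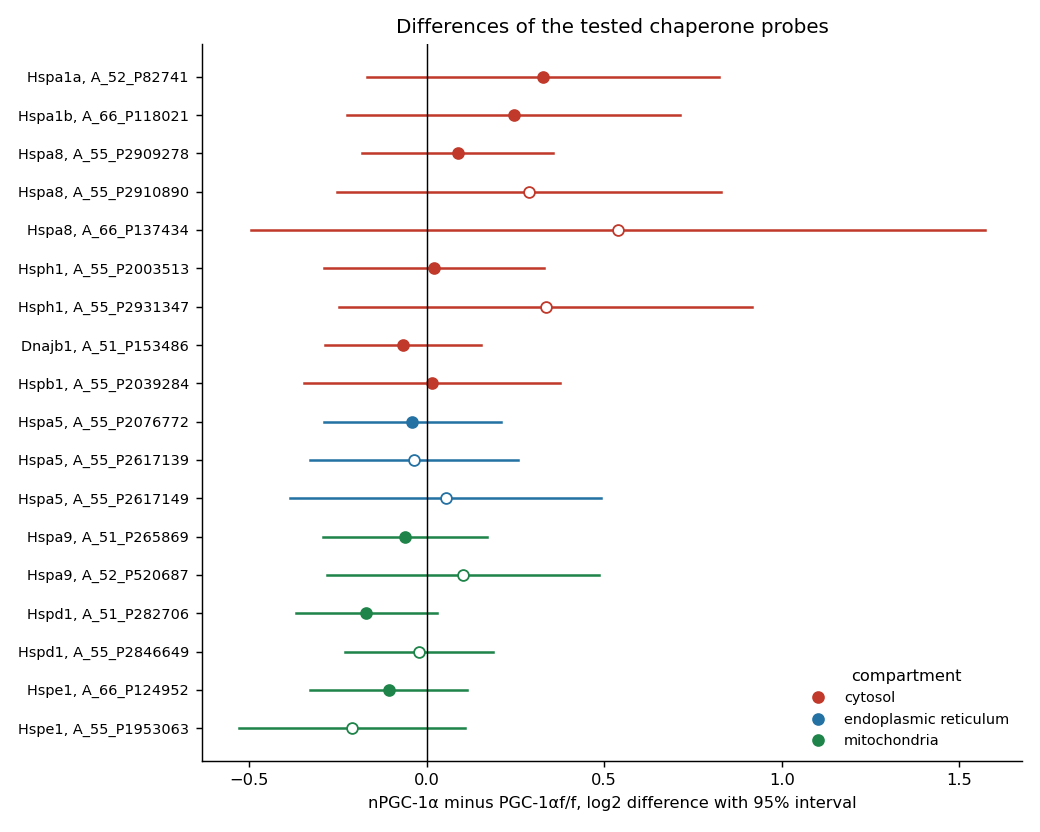
Differences between nPGC-1α and PGC-1αf/f mice for the 18 tested chaperone probes, as log2 values with 95% intervals, coloured by compartment. Filled points are the probes that stand for their gene and open points are further probes. The interval of each probe includes 0, and the widest belongs to the dimmest tested Hspa8 probe.

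Probes of 1 gene differed between the groups by unequal amounts. In Hspa8, the difference was 0.09 on the brightest tested probe, 0.29 on A_55_P2910890 and 0.54 on A_66_P137434 (3 to 5 arrays per group). The brighter untested probe, A_55_P2069721, was lower in nPGC-1α mice, over 1 PGC-1αf/f and 3 nPGC-1α arrays. On A_66_P137434 the PGC-1αf/f mice read -0.28, 0.82, 0.93 and -0.94 for replicates 2 to 5, and 3 nPGC-1α mice 0.34, 0.83 and 0.86. Replicates 2 and 5 of PGC-1αf/f were the lowest of these 7 mice, and replicates 3 and 4 were as high as the nPGC-1α mice.

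The same PGC-1αf/f arrays were low on the dim Hsph1 probe, A_55_P2931347, at -5.41 and -5.45, with replicate 1 at -5.14, against -4.20 and -4.21 on replicates 3 and 4. The 5 nPGC-1α mice lay between -4.87 and -4.30. That probe differed by 0.33 where the brighter tested one differed by 0.02. Neither passed the test (limma unadjusted p = 0.231 and 0.887). The untested Hsph1 probe, A_55_P2176963, was lower in nPGC-1α mice, over 2 arrays in each group.

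A like difference between arrays was present over all genes with several probes. The median log2 gap between the brightest and the dimmest probe of a gene was 2.60, 2.48 and 2.73 on PGC-1αf/f replicates 1, 2 and 5 and 2.20 and 2.26 on replicates 3 and 4. It was 2.53 and 2.59 on nPGC-1α replicates 1 and 5 and 2.29 to 2.30 on the other 3, over 4583 to 5929 genes an array. Between the tested Hspe1 probes the gap went the other way on replicate 5. There it was 2.99 in PGC-1αf/f and 2.90 in nPGC-1α mice, against 3.32 to 3.66 on the other arrays. These probes and this gap were chosen after their values were seen, and the part of the gap in the gene differences was not tested.

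**Figure D4:**
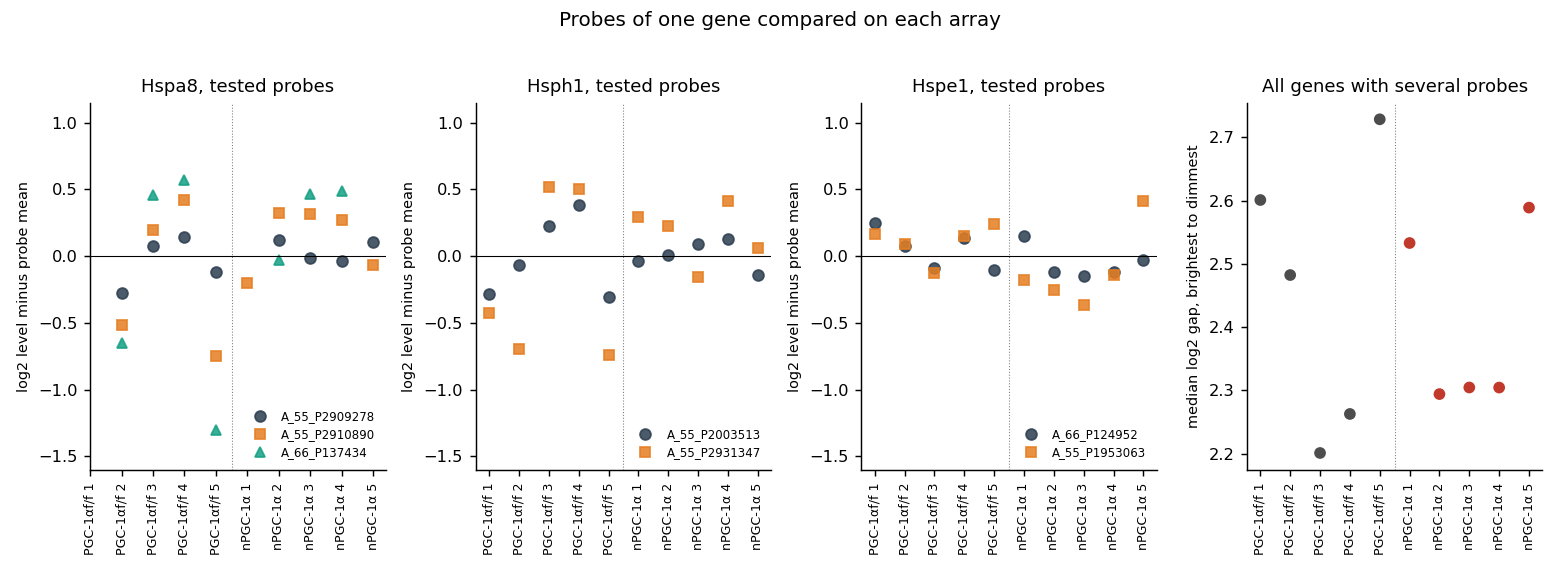
The tested probes of Hspa8, Hsph1 and Hspe1 on each array, as log2 level minus the mean of the probe over arrays, and at the right the median log2 gap between the brightest and dimmest probe over all genes with several. The dimmer Hspa8 and Hsph1 probes are lowest on PGC-1αf/f replicates 2 and 5, and the gap is widest on PGC-1αf/f replicates 1 and 5 and nPGC-1α replicate 5. The dimmer Hspe1 probe is highest on replicate 5 of each group.

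Some arrays were low or high for many of the 10 genes. In nPGC-1α replicate 3, 7 of the 10 genes were at the lowest level of the group, and that array had the highest noise signal, 20.9, and the lowest share of spots well above background, 67.2%. In nPGC-1α replicate 1, 6 of the 8 genes with a value were at the highest level of the group. PGC-1αf/f replicate 2 held the lowest value of its group for 5 of 10 genes. These counts cover the chosen genes and do not show a shift of a whole array. How many of all named genes were lowest or highest on these arrays was not counted. On nPGC-1α replicate 3, marker genes went both ways, with a mean deviation of 2.21 for choroid plexus and -0.11 for inhibitory neurons. The other folding lists, described below, were all under 0 there. Their mean deviations were -0.07 for HSF1 and its partners, -0.10 for TRiC, -0.05 for the endoplasmic reticulum and -0.02 for mitochondria. No cause of these low and high values was tested.

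Other protein folding genes were examined by lists set for the comparison. Of 82 such genes tested, 27 were above 0 and 55 below, none passed an unadjusted p of 0.05 in limma, and the lowest adjusted p was 0.447. Over the alternatives 0 to 2 of them passed the unadjusted p, with 2 under the Eif2s3y covariate and under the mean of the probes of a gene. The count below 0 rests on the scaling, since quantile normalisation placed 47 above and 35 below and normexp with quantile normalisation 45 and 37. Among all named genes 7625 were above and 9968 below 0.

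Among HSF1 and its cytosolic partners, 24 of 30 genes were below 0 with a median of -0.07, and with quantile normalisation 14 of 30 with a median of 0.01. Hsf1 itself read 0.0310 to 0.446 in PGC-1αf/f and 0.0234 to 0.338 in nPGC-1α mice, a difference of -0.07 (limma adjusted p = 0.798). Hsp90aa1, the inducible cytosolic Hsp90, read 3.04 to 3.44 on 3 PGC-1αf/f and 2.83 to 3.32 on 4 nPGC-1α arrays and differed by -0.13 (limma adjusted p = 0.761). The gene of the list nearest to the threshold was Hspb6, a small heat shock protein, with 0.24 (limma adjusted p = 0.461). Its groups did not overlap, at -0.767 to -0.724 and -0.702 to -0.0790, and without nPGC-1α replicate 3, its highest array, the difference was 0.13. Of the 82 genes, Hspb6 and St13, a partner of Hsp70, had groups that did not overlap, beside 2.36% of the named genes tested.

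In the cytosolic chaperonin TRiC, a ring that folds actin and tubulin, 2 of 7 genes were above 0 and the median was -0.02. In the list of endoplasmic reticulum folding and the unfolded protein response, 13 of 29 were above 0 and the median was -0.01. Hsp90b1, the Hsp90 of that compartment, had values on 6 arrays only and was not tested. With outlier spots kept it differed by -0.10 (limma adjusted p = 0.638).

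In mitochondrial folding and protein quality control, 6 of 16 genes were above 0 and the median was -0.05. Trap1, the mitochondrial Hsp90, read 0.380 to 0.869 in PGC-1αf/f and 0.770 to 0.840 in nPGC-1α mice and differed by 0.26 over 3 against 3 arrays (limma adjusted p = 0.570), opposite in sign to Hspd1 and Hspe1. Atf5, a transcription factor of the mitochondrial unfolded protein response, differed by -0.19, with the lowest p of the 82 genes (limma adjusted p = 0.447).

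**Figure D5:**
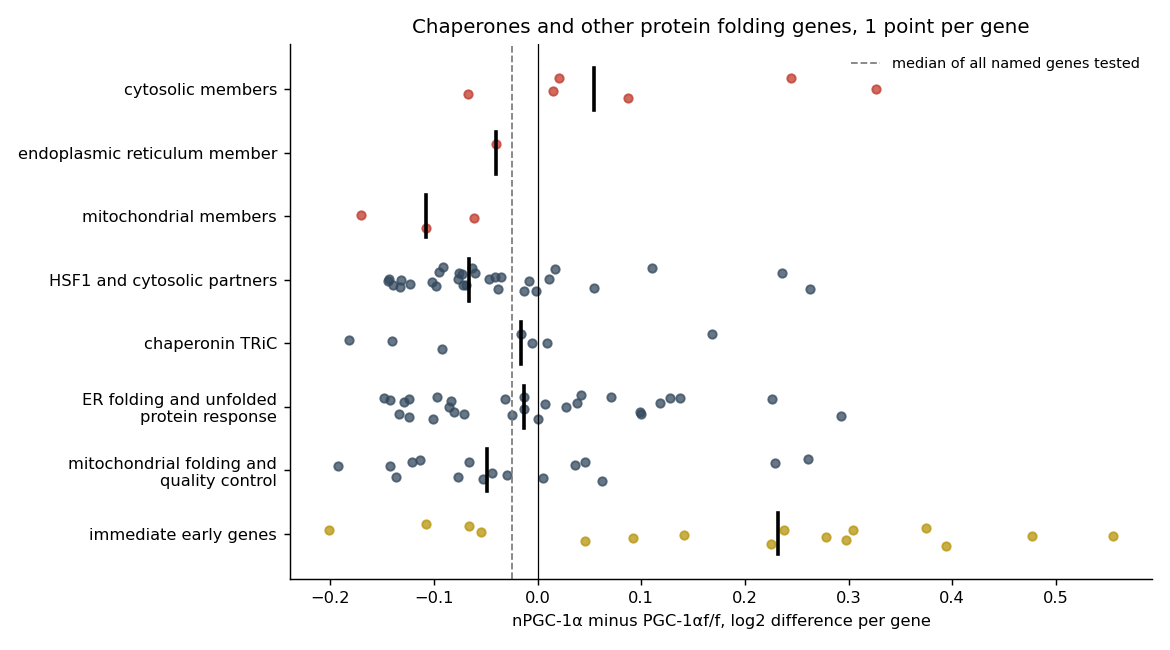
Differences between nPGC-1α and PGC-1αf/f mice, 1 point per gene on the log2 scale, for the chaperones by compartment, 4 further lists of folding genes (ER, endoplasmic reticulum) and immediate early genes. Black bars are list medians and the dashed line is the median of all named genes tested, -0.02. The folding lists centre between -0.07 and -0.01 and the immediate early genes at 0.23.

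Values of other gene lists are given beside those of the chaperones. Immediate early genes, which neuronal activity and handling induce, had a median of 0.23 with 12 of 16 above 0. Of these, Ier2 at 0.48, Btg2 at 0.39 and Egr3 at 0.30 passed an unadjusted p of 0.05, which is 18.8% of the list beside 8.21% of the named genes, and none passed after adjustment (lowest limma adjusted p = 0.136). Their mean deviation ran from -0.51 to 0.18 over PGC-1αf/f and from -0.05 to 0.28 over nPGC-1α mice. Without both outlier-rich arrays the median was 0.05, with 9 of 16 above 0, and 3 again passed an unadjusted p of 0.05 in limma. Hspa1a and Hspa1b were then at 0.12 and 0.07. The part of these genes in the Hspa1a and Hspa1b values was not tested.

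Among markers of cell types, the median difference was 0.07 for 8 excitatory neuron genes, -0.03 for 8 of inhibitory neurons and -0.11 for 8 of astrocytes. For 8 oligodendrocyte genes it was 0.32, for 6 tested of microglia -0.10 and for 8 of endothelial cells 0.20. For choroid plexus it was -0.07 and for 4 tested erythroid genes -0.002. Every one of these lists held no gene past an adjusted p of 0.05, with lowest limma adjusted p-values between 0.190 and 0.628. Of the 58 genes tested over all these lists, 3 above 0 and 2 below passed an unadjusted p of 0.05, which is 8.62% beside 8.21% of the named genes. The mean deviation of choroid plexus genes ran from -1.23 to 2.21 over the mice and that of astrocyte genes from -0.147 to 0.275, both overlapping between groups. The part of these cells in the chaperone values was not tested.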

How the data were processed

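Total RNA of the hippocampus was hybridised by the authors to 1-colour Agilent arrays, 10 in all, grouped by the sample labels. The deposited scanner files, written by Feature Extraction 11.5.1.1 per the file headers (another version than the methods name), hold background-subtracted intensity per spot, not normalised between arrays. A deposited table of log2 values made by the authors in GeneSpring, whose columns matched their arrays and shared 1 maximum, as quantile normalisation gives, served as an alternative.

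The log2 intensity minus the log2 75th percentile of each array was used, without control or outlier spots. Of 56605 probes, 39142 were kept: well above background on all 5 arrays of a group, with at least 3 values per group. A RefSeq table (GRCm38.p6) named 33762 probes by accession. The file headers name another build, so gene positions are from RefSeq alone. Promoters came from RefSeq for 8 of the 10 genes; Hspa8 and Hspa9 are not shown. Groups were compared with limma 3.58.1 in R 4.3.3 (lmFit, eBayes, two-sided, no covariates, Benjamini-Hochberg over all probes kept), a procedure tested on simulated data, and single genes with exact permutation tests. The number of arrays limits the precision. The labels do not say that replicates came from separate litters.

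The 10 genes and all lists were chosen with earlier results of these data known. Named beside them were Hsf1, Hsp90aa1, Hsp90b1, Trap1, genes past an unadjusted p of 0.05, and label checks; Atf5, Hspb6 and St13 were named after their values were seen. Alternatives were other scalings, filters, blocks, weights, a covariate, probe averaging, and leaving out arrays.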

Additional observations from a re-analysis of the deposited data

How the results depend on the processing

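Under 25 alternatives, 10 of them leaving out 1 array, none of the 10 genes passed an adjusted p of 0.05 (lowest 0.346), and 20 of 250 gene differences changed sign. Hspa1a, Hspa1b, Hspa8, Hspd1 and Hspe1 kept their sign under every one of them. Quantile normalisation turned Hspa5 to 0.0052 and Hspa9 to 0.0192, and normexp with quantile normalisation turned Dnajb1 to 0.0079. Slide 1 alone turned Hsph1 to -0.0152. Array weights turned Hsph1 to -0.111 and Hspb1 to -0.0732, and the Eif2s3y class as a covariate turned Hspb1 to -0.0279. The mean of the probes of a gene turned Hspa5 to 0.0032 and Hspa9 to 0.0195. Leaving out both outlier-rich arrays, chosen after seeing the data, turned Hsph1 to -0.0368 and Hspb1 to -0.0248. The count of genes past an unadjusted p was 1 with trend and robust eBayes and 0 to 1 with 1 array left out. Leaving out 1 array gave -0.0527 to 0.119 for Hsph1, -0.0936 to 0.0753 for Hspb1, -0.102 to 0.0118 for Hspa5, 0.100 to 0.365 for Hspa1b, -0.105 to -0.0215 for Dnajb1, -0.105 to -0.0095 for Hspa9 and -0.158 to -0.0590 for Hspe1. The cause of these changes was not tested. The labels do not say what a replicate number shares. Same-number correlations were 0.0776 to 0.356, with 3 of 5 numbers correlating best with their own, and same-numbered arrays of slide 1 shared a slide column, so the block stands here only as an alternative. The replicate block left the mitochondrial median at -0.107 and the cytosolic at 0.0541, called none of the 10 genes and moved the count of other folding genes past an unadjusted p from 0 to 1. What limits these results is the number of arrays and, for 7 tested probes, the loss of both first replicates to outlier marks.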
